A study of Mus musculus with 14 samples.

Results

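H3K9cr in the kidneys of wild-type (WT) mice was compared between obstructed and control kidneys, by the peak lists of 4 ChIP-seq libraries out of 14 in the series. ChIP-seq pulls down chromatin with an antibody and sequences the DNA, and a peak is a stretch of the genome where those reads pile up. The obstructed group, WT UUO, held 2 libraries from kidneys after unilateral ureteric obstruction, a surgical model of kidney fibrosis in which the left ureter was tied and cut. The control group, WT control, held 2 libraries from kidneys without obstruction, which the labels only call control and the methods describe as sham-operated. According to the methods, the mice were C57BL/6J aged 6 to 8 weeks and the WT animals of both groups carried no deletion, while the knockout groups used below for comparison (ACSS2-/-) lacked ACSS2, an enzyme that makes acetyl-CoA and crotonyl-CoA. The day after surgery on which these kidneys were taken is not given in the sources used here. Chromatin came from kidney tissue of mixed cell types, and the ChIP methods do not say which part of the kidney was taken. A gain or loss of the mark within a cell type and a change in how many such cells the tissue holds cannot be told apart in these libraries. The methods name a single source of the H3K9cr antibody. The labels give each group its own catalogue number, rising by 1 from group to group, and whether the antibodies differed is not given in the sources used here. If they did, antibody and group cannot be told apart.

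H3K9cr is the crotonyl form of lysine 9 on histone H3. Like acetylation of the same residue, it is found at the start sites and enhancers of active genes, and it is written by acyltransferases that use crotonyl-CoA as donor. In an obstructed kidney the proximal tubule loses its transport and metabolic functions, injured tubule cells switch on repair genes, leukocytes enter the organ and fibroblasts lay down collagen. These statements are background, and nothing in the peak lists measures transcription.

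A gene was counted as gained when both WT UUO lists, and neither WT control list, held a peak within 3 kb of either of its ends, and as lost in the opposite case. By this rule 920 of 49943 RefSeq genes were gained (1.84%) and 498 were lost (0.997%). Among the 21887 protein-coding genes, 440 were gained (2.01%) and 174 were lost (0.795%). A further 16252 genes had a peak in all 4 lists and 28302 in none. The counts follow from the rule and were not tested. Neighbouring genes can share a peak, and the gained genes fell into 754 separate loci and the lost genes into 446. Besides protein-coding genes, the gained set held 321 lncRNAs and the lost set 225. Other genes lay just outside the rule. Of the genes with a peak in both UUO lists, 459 also had one in control replicate 2 alone and 235 in control replicate 1 alone. Of the genes with a peak in both control lists, 495 also had one in UUO replicate 1 alone and 175 in UUO replicate 2 alone. The rule also depends on how complete each list is, since asking for fewer lists can only raise a count. Without UUO replicate 2 the gained genes numbered 1718, and the lost genes numbered 993 without UUO replicate 1, 1034 without control replicate 1 and 833 without control replicate 2.

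UUO replicates 1 and 2 held 36734 and 30406 peaks, and control replicates 1 and 2 held 32945 and 36485. Peaks covered 44.6 and 35.0 Mb in the UUO lists against 41.7 and 44.8 Mb in the control lists, with UUO replicate 2 the lowest on both measures. That list also held 441 peaks of 4 kb or more, against 767 to 853 in the other 3. The median peak length was 889 and 883.5 bp after UUO and 950 and 887 bp in control. None of the 5 totals compared (peaks, covered length, median length, share of distal peaks, genes with a peak) separated the groups, with exact permutation p from 0.667 to 1 where 2 against 2 libraries cannot give less than 0.333, which does not show that the groups are alike. Within a group, 88.1% of the genes with a peak in either UUO list had one in both, and 89.4% of those in control. The lists carry no peak height, and read depth is unknown from them. UUO replicate 1 and control replicate 2 had peaks at 4 of 7 Y-linked genes, and UUO replicate 2 and control replicate 1 at 0, so the 2 libraries of each group differed at the Y chromosome, as mice of different sex would. Peak names carry another number than the label in the list labelled UUO replicate 1, and likewise in 3 ACSS2-/- UUO lists, H3K9cr replicate 1 and both of H3K9ac. Kidney identity was visible in all 4 lists, where the proximal tubule receptors Lrp2 and Cubn and the loop gene Umod had a peak. The podocyte gene Nphs1 had none in any, while of 19 podocyte genes 11 had a peak in all 4 lists and 3 had none.

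The 12 protein-coding genes with the longest gained peaks included 3 that share 1 locus and a neighbouring pair, Ms4a6b and Gm8369, that shares a peak. C1qa, C1qb and C1qc encode the chains of complement C1q, which macrophages produce, and lie together on chromosome 4. At C1qa the longest peak measured 9547 bp in UUO replicate 1 and 5281 bp in UUO replicate 2, and no peak was called in either control list. C1qc had the same 2 values and C1qb had 9547 and 2024 bp. In replicate 1 a peak of 9547 bp came within 3 kb of an end of each of the 3 genes. The longest peaks of replicate 2 were shorter at all 3. Tyrobp, the signalling adaptor of myeloid receptors, had peaks of 2692 and 5981 bp. Il10ra, the interleukin-10 receptor, had 3814 and 3773 bp, and the Rac regulator Arhgap25 had 3697 and 3753 bp. H2-Eb1, a class II antigen-presenting chain, had 3345 and 4364 bp. Tnf, the inflammatory cytokine, had 3116 and 4080 bp. All of these were without a control peak, as the rule requires, and the 2 UUO libraries differed in length by more at C1q and Tyrobp than at Il10ra or Arhgap25. The remaining genes of the 12 were Tspoap1 and Inava.

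**Figure D1:**
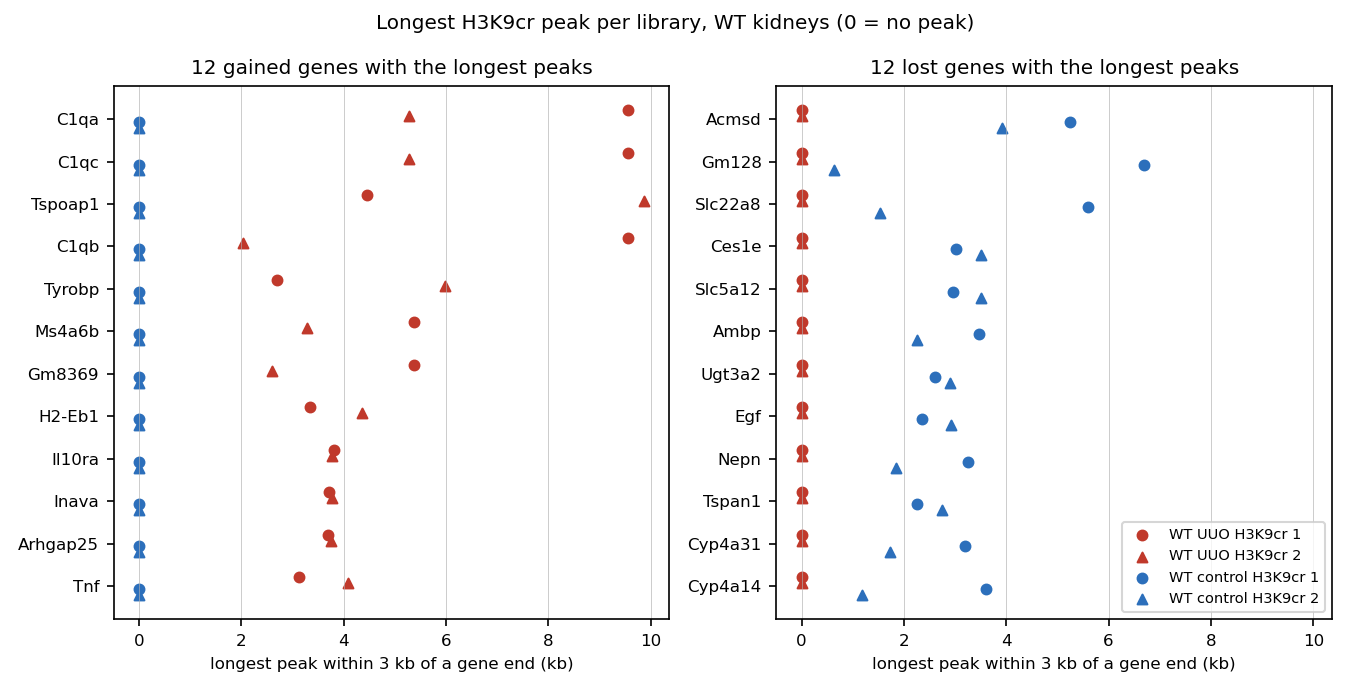
Length in kb of the longest H3K9cr peak within 3 kb of a gene end, for the 12 gained (left) and 12 lost (right) protein-coding genes with the longest peaks. Red marks are the WT UUO libraries and blue marks the WT control libraries (circle, replicate 1, and triangle, replicate 2), and a mark at 0 means no peak. C1qa reaches 9547 bp in UUO replicate 1 and Acmsd 5252 bp in control replicate 1.

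The gained peak at Tspoap1, of 4463 and 9870 bp, also reached Mir142, which lies beside that gene at chr11:87756864-87756927 (GRCm38) and makes a microRNA that blood cells produce in abundance. Mir142 was singled out after its values were seen, as 1 of 24 gained microRNA genes among 1228 annotated, with 14 lost. These counts are to be read beside the 1.84% gained and 0.997% lost of all genes, which are shares of similar size. Its mature products are given from RefSeq because no protein-coding gene of the locus carries that role, with the seed (bases 2 to 8) in capitals.
miR-142a-5p, chr11:87756867-87756887, plus strand: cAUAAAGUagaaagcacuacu
miR-142a-3p, chr11:87756903-87756925, plus strand: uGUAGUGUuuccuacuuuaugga
In ACSS2-/- kidneys Mir142 had a peak of 2133 and 1065 bp in the 2 UUO libraries and none in the 2 control libraries.

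Acmsd came first among the 12 protein-coding genes with the longest lost peaks. Acmsd, an enzyme that diverts tryptophan breakdown away from NAD synthesis, had peaks of 5252 and 3921 bp in control replicates 1 and 2 and none after UUO. Slc5a12, a lactate transporter, had 2959 and 3502 bp. Slc22a8, the organic anion transporter OAT3, had 5588 and 1526 bp, so the 2 control libraries differed widely there. Ces1e (a carboxylesterase) had 3024 and 3504 bp. Egf, the epidermal growth factor gene that the distal tubule expresses, had 2354 and 2916 bp. Cyp4a14 and Cyp4a31, which encode fatty acid hydroxylases, had 3602 and 1189 bp and 3185 and 1735 bp. Peaks of 2 kb or more were found at 19 and 13 of the 174 lost protein-coding genes in control replicates 1 and 2, and at 63 and 41 of the 440 gained ones in UUO replicates 1 and 2. Gm128, Ambp (the precursor of alpha-1-microglobulin), Ugt3a2, Nepn and Tspan1 made up the rest of the 12.

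Gained and lost peaks were short beside those present in every list. The median longest peak of a gained protein-coding gene was 875 and 759 bp in UUO replicates 1 and 2, and that of a lost gene was 723 and 682 bp in control replicates 1 and 2. Genes with a peak in all 4 lists had medians between 1592 and 1781 bp. Of the 578 gained genes with an annotated start sequence, 461 (79.8%) had the peak within 3 kb of that start in both UUO lists and none there in control. For lost genes the number was 224 of 297 (75.4%).

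Leukocyte genes made up the largest gained groups among 29 gene lists. In the list of leukocyte signalling genes shared by many blood cells, 23 of 48 were gained (47.9%) and 0 lost. Of 47 T and NK cell genes 20 were gained (42.6%) and 1 lost, and of 50 macrophage and monocyte genes 15 were gained (30%) and 0 lost. For comparison, 2.01% of all protein-coding genes were gained and 0.795% lost. Peaks were called at 45 of the 48 shared leukocyte genes in each UUO list, against 17 and 22 in the control lists. T and NK genes with a peak numbered 33 and 35 after UUO and 11 and 10 in control, and macrophage genes 36 and 31 against 12 and 12. The ranges of the 2 groups did not overlap in any of the 3 lists. Nor did they over all protein-coding genes with a peak, 13603 and 13249 after UUO and 12916 and 13120 in control. The gained rule used these same libraries, so the separation adds nothing to the counts of gained genes. Summed over the list, the longest peaks came to 89.9 and 78.4 kb at shared leukocyte genes after UUO against 25.6 and 32.2 kb in control. At T and NK genes the sums were 41.5 and 48.0 kb against 11.5 and 10.9 kb. At macrophage genes they were 92.6 and 65.2 kb against 17.0 and 18.2 kb.

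Among the shared leukocyte genes, Ptprc, which encodes the leukocyte surface protein CD45, had peaks of 2263 and 1744 bp after UUO. Cd52 had 3105 and 3101 bp, Ikzf1, a lymphoid transcription factor, had 2341 and 2177 bp, and the haematopoietic GTPase Rac2 had 1386 and 2361 bp. Cd53 and Lcp2 were also gained. On the T cell side, Trac, the constant region of the T cell receptor alpha chain, had 2525 and 4899 bp, and Cd3d, a chain of the T cell receptor complex, 3083 and 2953 bp. Skap1, Fasl and Cd5 followed by length. The 1 lost gene of that list was Il2ra, a receptor chain of interleukin 2, with 1651 and 810 bp in control. Laptm5 and Ccr2, the receptor that draws monocytes into tissue, came after C1q and Tyrobp among the macrophage genes. Ccr2 had 2215 and 1707 bp. Some macrophage genes missed the rule by 1 list. Csf1r, the receptor of the macrophage growth factor, had 1434 and 1318 bp after UUO and 592 bp in control replicate 2, and Adgre1 had a peak of 674 bp in UUO replicate 1 alone. Cd68 had a peak in all 4 lists, between 1687 and 2980 bp. Of 13 neutrophil genes, 0 were gained and 2 lost (15.4%), Elane and Mmp9, and 9 had no peak in any list. Of 17 B and plasma cell genes, 1 was gained (Cd79b) and 10 had no peak. No test of a list was made, and how far leukocyte number moves these counts was not tested.

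Cytokine, receptor and complement genes were gained in smaller shares, read here beside the 2.01% of all protein-coding genes. Complement genes were gained at 6 of 33 (18.2%), IL-1 family genes at 3 of 18 (16.7%), antigen presentation genes at 4 of 26 (15.4%), chemokines and receptors at 8 of 56 with 1 lost, TNF superfamily genes at 6 of 46, and other interleukins and receptors at 7 of 70 with 1 lost. Several of these genes also stand in the leukocyte lists. Leaving out 1 library raised the IL-1 family count to 5 (without UUO replicate 2), that of the TNF superfamily to 10 (without control replicate 2) and that of the other interleukins to 11 (without UUO replicate 2). Il21r, an interleukin receptor of lymphocytes, had 2646 and 3528 bp. Ccl5, a chemokine for T cells, had 517 and 2350 bp. H2-Aa, the partner chain in class II antigen presentation, had 3028 and 2191 bp, and its activator Ciita had 778 and 670 bp. Cxcr1 was lost, with 1629 and 623 bp in control. Of 40 interferon response genes, 36 had a peak in all 4 lists and 2, Mx1 and Oas3, were gained, a count that was 4 without control replicate 1.

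Il1b encodes interleukin-1 beta, the cytokine at the centre of the study. Its gained peak measured 390 bp in UUO replicate 1 and 513 bp in UUO replicate 2, and none was called in control, which places it among the short gains. Both peaks lay upstream of the gene on chromosome 2, from 1465 to 1854 bases and from 1201 to 1713 bases before its start, and neither touched the start itself. In ACSS2-/- kidneys UUO replicate 1 had a peak of 1645 bp upstream and one of 508 bp within the gene, the other 3 H3K9cr libraries had none, and no H3K9ac library held a peak at Il1b. Il1r1, its receptor, had a peak in all 4 WT lists, of 565 and 907 bp after UUO and 558 and 621 bp in control. Il1rl1 and Il18r1, neighbouring receptor genes of the family, were gained through 1 shared peak of 2284 and 1148 bp. Acss2 itself had peaks of 1069 and 980 bp after UUO and 1279 and 1334 bp in control. The 2 groups overlapped at Il1r1 and did not at Acss2, and how many of all genes show no such overlap was not counted. No region at either gene was called longer or shorter by the length test given below. In ACSS2-/- kidneys the groups overlapped at Acss2, with 799 and 1583 bp after UUO and 2719 and 913 bp in control. Nlrp3, the sensor that controls release of interleukin-1 beta, was gained with 536 and 694 bp.

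Lists of injured tubules and of scar formation were counted next, again beside 2.01% of all protein-coding genes. Of 37 tubule injury and repair genes, 6 were gained (16.2%), 0 lost and 27 had a peak in all 4 lists. Runx1, a transcription factor, had 3208 and 3183 bp, Cd44, a hyaluronan receptor, 1778 and 2035 bp, Vcam1, an adhesion molecule, 1500 and 1903 bp, and Clu (clusterin) 1680 and 1171 bp. Timp1 and Krt19 had shorter peaks. Havcr1, the injury marker KIM-1, had a peak of 1030 bp in UUO replicate 1 alone and so missed the rule. The 2 chains of type I collagen were both gained, Col1a1 with 718 and 911 bp and Col1a2 with 1478 and 802 bp, among 5 of 44 collagen genes. The others were Col5a2, Col14a1 and Col9a2. Over the whole collagen list the summed longest peaks came to 37.5 and 35.9 kb after UUO and 35.6 and 35.0 kb in control. The distal regions nearest to collagen genes were gained at 5 of 127 (3.94%) and lost at 11 (8.66%), beside 6.59% and 8.95% of all distal regions. The region shared by Col4a3 and Col4a4, which encode chains of basement membrane collagen, was shorter after UUO by the length test given below, with 3553 and 3162 bp against 6816 and 6607 bp. Of 43 myofibroblast and stroma genes 4 were gained (9.30%), and this count rose to 7 without UUO replicate 1, 9 without UUO replicate 2 and 7 without control replicate 2. The 4 were Col1a1 and Col1a2, which also stand in the collagen list, Thy1, which also stands in the T and NK list, and S100a4. Acta2, the actin of myofibroblasts, had 845 and 1437 bp after UUO and 1683 bp in control replicate 2.

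In 3 tubule lists more genes were lost than gained. Of 46 proximal tubule enzyme genes 7 were lost (15.2%) and 0 gained, and of 41 genes of the loop, distal tubule and collecting duct 6 were lost (14.6%) and 0 gained, against 0.795% of all protein-coding genes. Among 43 proximal tubule transport genes 3 were lost (6.98%) and 1, the sodium-proton exchanger Slc9a3, was gained. The gain at an end of Slc9a3, of 818 and 782 bp, stood against a loss of length within the gene, where a region of 4239 and 4234 bp in control was covered over 878 and 1053 bp after UUO (log2 change -2.07, SE 0.21, limma adjusted p = 0.0311), and against 2 lost and 0 gained of the 6 distal regions nearest to it. Hpd, a tyrosine-degrading enzyme, had 2329 and 2104 bp in control, Aqp3, a water channel of the collecting duct, 1743 and 1746 bp, and Slc12a1, the sodium-potassium-chloride transporter that loop diuretics block, 2139 and 629 bp. Slc5a2, the glucose transporter SGLT2, had 1106 and 341 bp. More tubule genes kept a peak than lost it, and 20, 20 and 19 genes of the enzyme, transport and distal lists had one in all 4 lists. Pck1, an enzyme of glucose synthesis, had 1418 and 985 bp after UUO against 5673 and 5929 bp in control. Slc34a1, the main phosphate transporter, which missed the rule, had 597 bp in UUO replicate 1, none in replicate 2, and 6283 and 4492 bp in control. Summed longest peaks at proximal tubule enzyme genes came to 45.6 and 27.6 kb after UUO against 112.8 and 99.1 kb in control, and at transport genes to 53.1 and 32.6 kb against 111.3 and 93.2 kb. UUO replicate 2 was the lower library in both lists. Without UUO replicate 1 the lost enzyme genes numbered 17 and the lost transport genes 12, and the latter numbered 8 without control replicate 1.

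The remaining lists are given beside the same 2.01% gained and 0.795% lost. Of 48 genes of fatty acid oxidation and crotonyl-CoA metabolism, 0 were gained, 0 were lost and 43 had a peak in all 4 lists, though their summed longest peaks came to 87.3 and 71.8 kb after UUO against 117.7 and 113.3 kb in control, and the distal regions and region lengths given below changed for this list. Of 35 histone acylation enzymes and readers, 31 had a peak in all 4 and Hdac4 was lost. Of 39 nephron transcription factors, 30 had a peak in all 4 and 2 (5.13%), Osr2 and Esrrb, were lost. Of 26 endothelial and 19 podocyte genes 0 were gained and 0 lost, as of the 7 Y-linked genes. TGF-beta and BMP genes (44) had 1 gained, Ltbp2, and genes of senescence, p53 and the cell cycle (38) had 1 gained, the senescence gene Cdkn2a with 1109 and 819 bp. Matrix proteases and inhibitors (33) had 1 gained and 1 lost, and inflammasome genes (27) had 2 gained and 0 lost. The 2 inflammasome genes became 6 without UUO replicate 2 and 4 without control replicate 2.

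**Figure D2:**
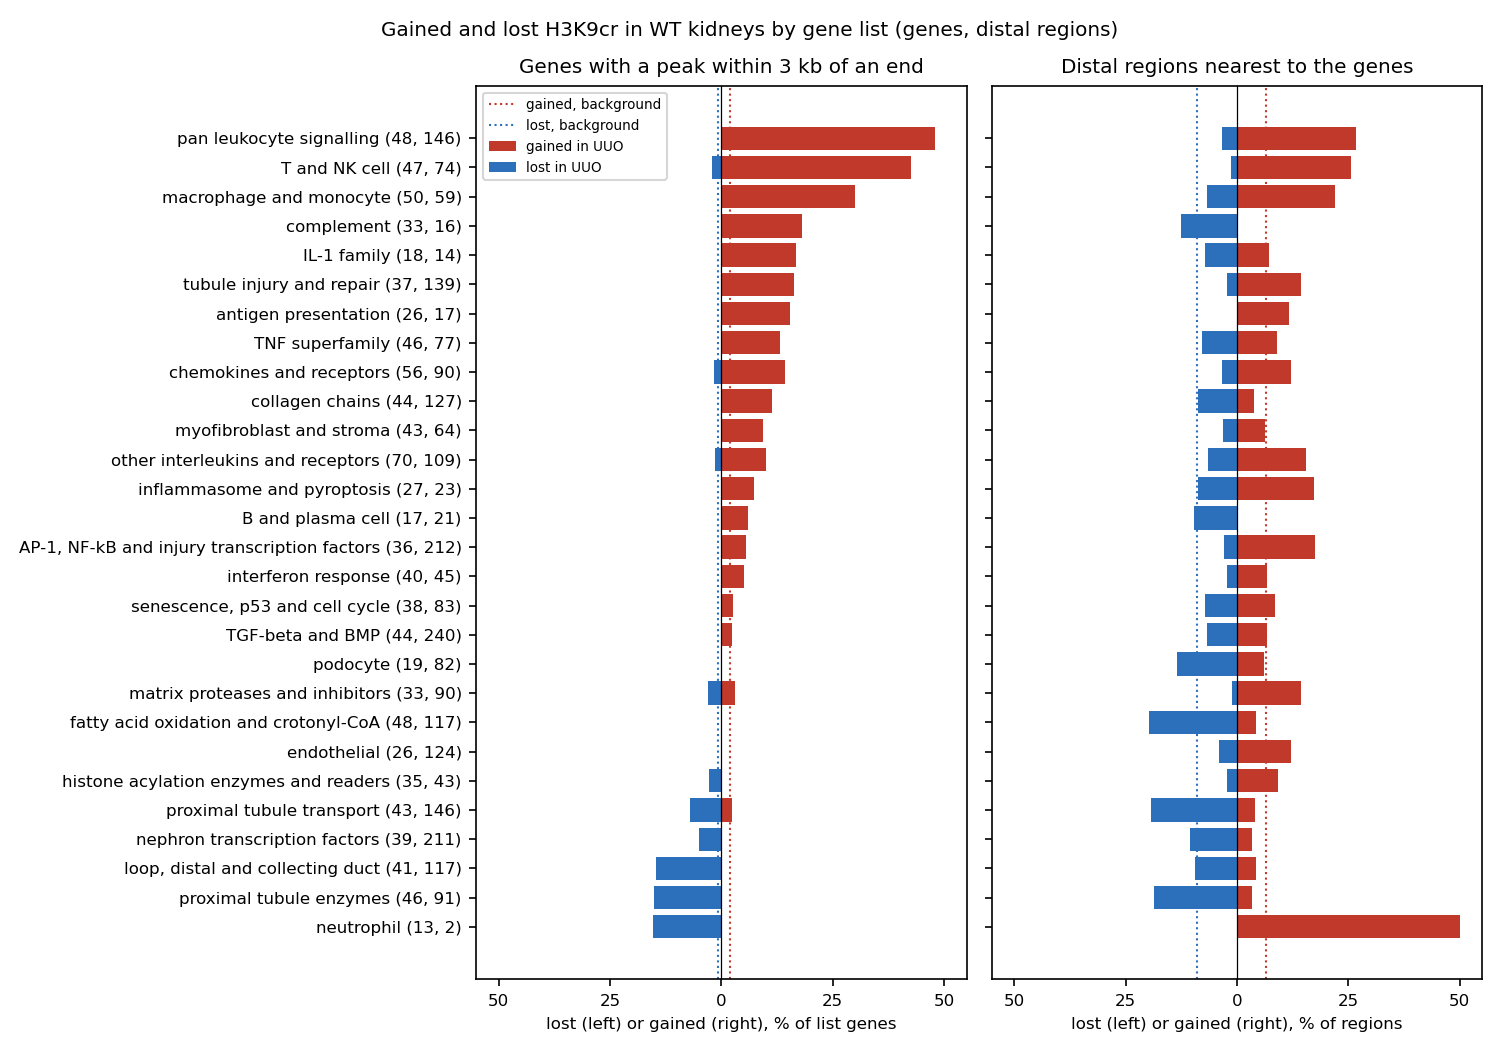
Share of each gene list gained (right, red) or lost (left, blue) in WT UUO, for genes with a peak within 3 kb of an end (left panel) and for distal regions whose nearest protein-coding gene is in the list (right panel), in percent, with the number of genes and of distal regions in brackets. Dotted lines give the share over all protein-coding genes or all distal regions. Shared leukocyte genes stand at 47.9% gained, and proximal tubule enzymes at 15.2% lost.

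Promoter sequences of RefSeq (GRCm38.p6, 250 bases before to 50 after a start) were read for the genes whose start had gained or lost the peak. The 296 gained promoters had a median CpG ratio (observed over expected CpG) of 0.352 and the 105 lost promoters of 0.275, whereas the 11656 promoters with a peak in all 4 lists had 0.775 and all 21263 protein-coding promoters 0.567. Ratios over 0.6, as in CpG islands, were found at 29.4% of gained, 18.1% of lost and 74.1% of constant promoters. Both changing sets were poorer in CpG than the constant set. Short motifs were searched on both strands. The PU.1 motif GAGGAAGT, named for a factor of myeloid and B cells, was present in 7.77% of gained promoters (23), 5.71% of lost (6) and 3.13% of all. The letters GTTAATNAT, part of the site of the tubule factor HNF1, were present in 0 of 296 gained promoters, 3.81% of lost (4) and 0.720% of all. The ETS motif CCGGAAGT, which shares letters with the PU.1 motif, was in 1.35% of gained, 0% of lost, 8.68% of constant and 5.15% of all promoters. Its letters hold a CpG, and both changing sets were poor in CpG. The AP-1 motif TGANTCA was in 6.08% of gained, 7.62% of lost and 6.99% of all, and TATAAA in 13.9%, 15.2% and 12.6%. The HNF4 letters CAAAGTCCA were in 0.338%, 0% and 0.451%, and the CRE TGACGTCA in 1.69%, 0.952% and 2.23%. A match of letters is no evidence of binding, and the counts of lost promoters are small.

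Of the gained promoters with the PU.1 letters before the start, the 3 with the longest peaks are shown with those letters, or their reverse complement, in capitals. In each, a peak covered all 250 bases in both UUO lists and none in control.
C1qc promoter, chr4:136892915-136893164, minus strand: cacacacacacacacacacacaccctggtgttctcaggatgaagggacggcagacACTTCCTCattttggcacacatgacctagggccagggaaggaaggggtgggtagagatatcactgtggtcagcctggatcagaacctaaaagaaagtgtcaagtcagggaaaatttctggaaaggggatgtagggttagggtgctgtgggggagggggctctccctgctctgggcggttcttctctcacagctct
Arhgap25 promoter, chr6:87533260-87533509, minus strand: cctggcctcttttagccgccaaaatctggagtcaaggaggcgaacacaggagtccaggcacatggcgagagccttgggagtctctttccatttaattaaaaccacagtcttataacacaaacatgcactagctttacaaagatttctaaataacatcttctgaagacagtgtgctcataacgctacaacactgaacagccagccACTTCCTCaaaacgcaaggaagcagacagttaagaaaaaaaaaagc
Cd5 promoter, chr19:10738975-10739224, minus strand: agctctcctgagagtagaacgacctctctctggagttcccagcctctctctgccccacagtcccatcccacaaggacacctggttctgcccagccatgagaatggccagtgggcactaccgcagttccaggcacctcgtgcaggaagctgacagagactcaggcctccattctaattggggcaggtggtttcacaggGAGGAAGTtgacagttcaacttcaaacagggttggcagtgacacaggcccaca
The first capital stands 195, 46 and 53 bases before the start. The lost promoters with the HNF1 letters were those of Igfbp1, F13b, Cltrn and Tmed6, which encode an insulin-like growth factor binding protein, a subunit of a clotting factor, collectrin (an amino acid transport partner of the proximal tubule) and a trafficking protein. The first 2 are shown, as peaks covered all of their 250 bases in both control lists and none after UUO.
Igfbp1 promoter, chr11:7197537-7197786, plus strand: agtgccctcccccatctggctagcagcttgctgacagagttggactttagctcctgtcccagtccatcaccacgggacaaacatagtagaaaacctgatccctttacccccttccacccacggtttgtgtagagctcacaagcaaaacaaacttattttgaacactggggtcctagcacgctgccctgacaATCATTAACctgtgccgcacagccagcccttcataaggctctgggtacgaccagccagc
F13b promoter, chr1:139501457-139501706, plus strand: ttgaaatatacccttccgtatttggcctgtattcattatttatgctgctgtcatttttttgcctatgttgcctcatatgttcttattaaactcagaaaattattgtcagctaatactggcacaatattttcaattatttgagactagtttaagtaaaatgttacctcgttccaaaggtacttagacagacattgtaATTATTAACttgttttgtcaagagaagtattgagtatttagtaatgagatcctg
Here the first capital stands 59 and 54 bases before the start, and in Cltrn and Tmed6 it stood 54 and 52 bases before it. The bases before the start of Cltrn were covered in control replicate 1 alone and those of Tmed6 in no list, their peaks lying elsewhere within 3 kb.

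The peaks of the 4 lists merged into 55299 regions, of which 30905 lay over 3 kb from every gene end and are called distal here. Of these, 2038 were gained (6.59%) and 2767 were lost (8.95%). At gene ends 1330 regions were gained and 1131 lost, which brings all gained regions to 3368 (6.09%) and all lost regions to 3898 (7.05%). Distal regions made up 60.5% of gained and 71.0% of lost regions, against 25.6% of the regions with a peak in all 4 lists and 55.9% of all regions. Distal peaks repeated less well than those at gene ends. Of the distal regions with a peak in either UUO list 39.5% had one in both, and 43.4% in control, while regions at gene ends reached 74.3% and 75.4%. The order of gains and losses turned when either UUO library was left out, with 7506 gained and 3144 lost without UUO replicate 2 and 4685 gained and 4242 lost without UUO replicate 1. A gain then asked for 1 UUO list while a loss still asked for both control lists. The turn can therefore follow from the rule alone. The lost numbered 8020 and 6382 without control replicate 1 or 2.

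Gained distal regions carried a median of 710 and 604 bp of peak in UUO replicates 1 and 2, and lost distal regions 683 and 672 bp in the control replicates. Those with a peak in all 4 lists carried 1045 to 1361 bp. The median distance to the nearest gene end was 24.0 kb for gained and 25.9 kb for lost regions, and 56.4% of gained and 63.8% of lost regions lay inside a protein-coding gene, against 63.7% of all distal regions.

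The distal regions covered most fully in both UUO lists lay near Gramd3, Glrp1, Cd47, Cebpb and Rassf2. The region 63532 bases from Cebpb (chr2:167752258-167755670), a transcription factor gene of inflammation and myeloid cells, was covered over 3283 and 3101 bp after UUO and over 0 bp in control. In ACSS2-/- kidneys it was covered over 3212 and 1354 bp after UUO and over 0 bp in the controls. The region near Cd47, which encodes a signal that restrains phagocytes, was covered over 3541 and 3336 bp in WT UUO. Among the lost, a region inside Vav3 (chr3:109537967-109542083) was covered over 4117 and 3640 bp in control, and one inside Upp2 (chr2:58751104-58755678), a uridine-degrading enzyme, over 3915 and 4105 bp. The Upp2 region was covered over 3524 and 1757 bp in ACSS2-/- control and over 0 bp after UUO in both ACSS2-/- libraries. The remaining lost regions of this rank lay near Akr1c6, Inpp5f and Trim29.

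Distal regions were also counted by the list of their nearest protein-coding gene, to be read beside the 6.59% gained and 8.95% lost of all distal regions. Distal regions nearest to shared leukocyte genes were gained at 39 of 146 (26.7%) and lost at 5, those of T and NK genes gained at 19 of 74 (25.7%) and lost at 1, and those of macrophage genes gained at 13 of 59 (22.03%) and lost at 4. AP-1, NF-kB and injury transcription factors had 37 of 212 gained (17.5%) and 6 lost, while at their ends 31 of the 36 genes had a peak in all 4 lists and so could not be gained, and 2 were gained, Runx1 and Batf3, a count that was 4 without control replicate 2. Around endothelial genes 15 of 124 were gained (12.1%) and 5 lost. Most of these gains lay nearest to Ets1, with 12 gained and 0 lost of 42, so the share says little of the other endothelial genes. Distal regions nearest to proximal tubule transport genes were lost at 28 of 146 (19.2%) and gained at 6, and those of proximal tubule enzymes lost at 17 of 91 (18.7%) and gained at 3. Those of fatty acid oxidation genes were lost at 23 of 117 (19.7%) and gained at 5, and those of nephron transcription factors lost at 22 of 211 (10.4%) and gained at 7. Single genes with many changes were singled out after their values were seen. Ets1, a transcription factor of lymphocytes and endothelium, was the nearest gene of 12 gained and 0 lost distal regions out of 42, while its ends had no peak in either UUO list. Rad51b had 11 gained and 0 lost of 67, and Runx1 7 and 0 of 27. On the other side, Glis3, a transcription factor of the kidney and pancreas, had 10 lost and 1 gained of 47, Bnc2 had 8 and 0 of 24, and Ppargc1a, the coactivator of mitochondrial genes, 8 and 1 of 22. Long genes have more regions nearest to them, and no test over genes was made.

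Where a region had a peak in all 4 lists, the covered length was compared between groups. The test was limma on the log2 of the bases covered by peaks, centred on each library's median, with Benjamini-Hochberg adjustment over 17135 regions. By this test 106 regions (0.619%) were longer after UUO and 153 (0.893%) were shorter at an adjusted p under 0.05, and the lowest adjusted p was 0.0262. The median change was 1.85 on the log2 scale for the longer regions and -1.99 for the shorter. The calls rest on all 4 libraries and on the centring. Without centring none passed by limma (2759 regions had an unadjusted p under 0.05), and none passed without UUO replicate 2 (2422 regions). Without control replicate 1 the longer and shorter regions numbered 3 and 0, without control replicate 2 they numbered 31 and 4, and without UUO replicate 1 they numbered 47 and 426. The limma fit with the replicate number as a block called 290 and 463.

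The longest relative extension at a protein-coding gene end was found at Cd74, the invariant chain of class II antigen presentation, with 5296 and 5097 bp covered after UUO and 644 and 503 bp in control (log2 change 3.26, SE 0.22, limma adjusted p = 0.0262). Spi1, which encodes the factor PU.1, had 6117 and 6371 bp against 1321 and 866 bp. Pdgfb, a growth factor for mesenchymal cells, had 3089 and 3073 bp against 353 and 570 bp. These genes were picked by the test itself, so the likeness of their replicates adds nothing to it. Zc3h12d, Snx20, Lrp8, Ehd1 and Efhd2 completed the 8 longest extensions, and Sox9, a tubule repair factor, was also called, with a longest peak of 2941 and 2076 bp after UUO against 439 and 723 bp.

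The strongest shortening was at Acsm1, a mitochondrial acyl-CoA synthetase of the proximal tubule, with 405 and 364 bp after UUO and 6589 and 5030 bp in control (log2 change -3.84, SE 0.23, limma adjusted p = 0.0262). Fmo4, a flavin monooxygenase, had 323 and 326 bp against 3359 and 3433 bp. Hao2, a peroxisomal oxidase, had 497 and 525 bp against 3470 and 2788 bp. Slc52a3, Acsm5, Ppp1r1a and a region shared by Sufu and Actr1a were also among the 8. By list, 6 of 24 regions at proximal tubule enzyme genes were shorter and 0 longer (Acsm1, Fbp1, Gatm, Hao2, Pck1 and Sord), as were 6 of 49 at fatty acid oxidation genes, Ppara among them. Regions at macrophage genes were longer at 2 of 13 (Spi1 and Tyrobp) and at antigen presentation genes at 2 of 20, with 0 shorter. Tyrobp was also counted as gained, since the control peaks of its region lay over 3 kb from its ends. The median change over each of these lists was -0.79, -0.32, 0.59 and 0.56 on the log2 scale, against 0.02 over all regions. Over all regions 0.619% were longer and 0.893% shorter. Among other lists, regions were longer at 3 of 20 for shared leukocyte genes. They were longer at 0 of 8 for T and NK genes, 0 of 11 for complement genes and 0 of 38 for interferon response genes. These counts matched regions to protein-coding genes alone, which left out Trac of the T and NK list. The largest extension of all regions (chr14:54222807-54232438) overlapped Trac. It was covered over 6992 and 8626 bp after UUO against 620 and 374 bp in control (log2 change 4.08, SE 0.32, limma adjusted p = 0.0262). Its control peaks lay over 3 kb from the ends of Trac, which was counted as gained.

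**Figure D3:**
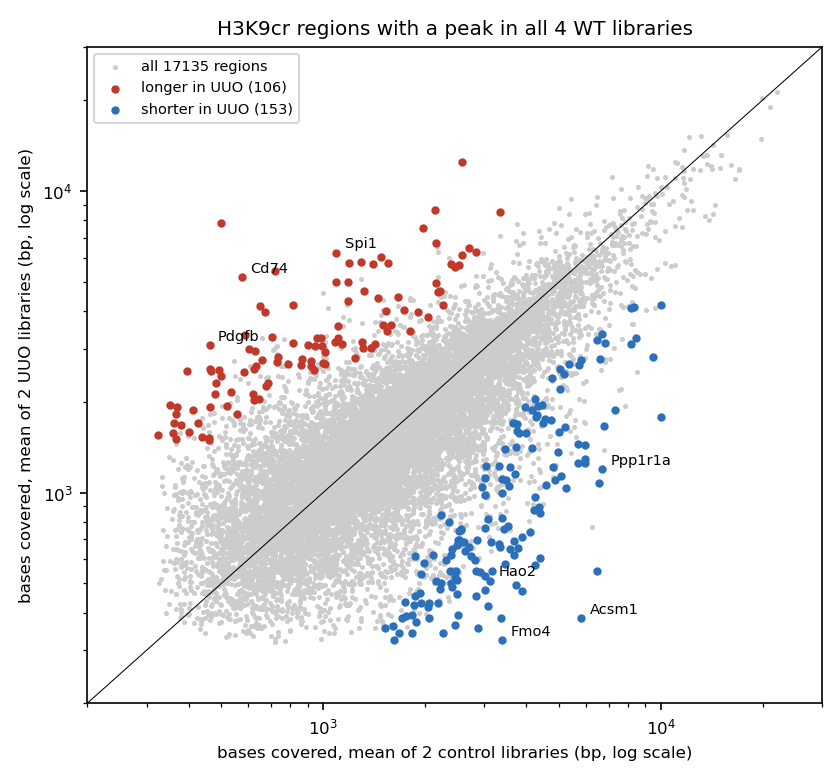
Bases covered by H3K9cr peaks in each of 17135 regions with a peak in all 4 WT libraries, as the mean of the 2 control libraries (x axis, bp, log scale) against the mean of the 2 UUO libraries (y axis, bp, log scale). Red points are the 106 regions called longer and blue points the 153 called shorter by limma, and the line marks equal lengths. Cd74 and Spi1 lie above the line, and Acsm1 and Fmo4 below it.

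The same features were then read in the 10 libraries that the rule did not use. In ACSS2-/- kidneys 72.5% and 42.6% of the genes gained in WT had an H3K9cr peak in UUO replicates 1 and 2, against 37.8% and 21.3% in control replicates 1 and 2. Over all genes the 4 shares were 38.6%, 35.6%, 40.1% and 37.7%. Under the same rule, 150 of the 920 gained genes (16.3%) were gained in ACSS2-/- UUO too, where 0.577% of all genes were, and these 150 were 52.1% of the 288 genes gained in ACSS2-/-. Of the 498 lost genes, 168 (33.7%) were lost in ACSS2-/- UUO, where 1.59% of all genes were, and they were 21.2% of the 794 lost in ACSS2-/-. Among protein-coding genes, 95 of the 440 gained (21.6%) were gained in ACSS2-/- and 59 of the 174 lost (33.9%) were lost there, where 0.758% and 1.14% of all protein-coding genes were. Of the lost genes 0 were gained there, and 19 of the gained genes were lost. The macrophage genes C1qa, C1qb, C1qc and Tyrobp were gained in both genotypes, among 8 of the 15 gained macrophage genes, as were 9 of the 23 gained shared leukocyte genes. Of the 20 gained T and NK cell genes 3 were gained in both. T and NK genes with a peak numbered 19 and 15 of 47 in ACSS2-/- UUO and 13 and 8 in ACSS2-/- control. Whether the genotypes differ in these counts was not tested.

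Of the 2767 distal regions lost in WT, 1168 (42.2%) were lost in ACSS2-/- UUO, where 13.4% of all distal regions were, and they were 28.2% of the 4146 lost there. Of the 2038 gained, 211 (10.4%) were gained in ACSS2-/- UUO, where 1.51% of all were, and they were 45.2% of the 467 gained there. One of the lists used here, that labelled ACSS2-/- UUO H3K9cr replicate 1, is among those whose peak names carry another number than the label. The ACSS2-/- lists were of unequal size, from 27530 peaks in UUO replicate 2 to 45014 in control replicate 1. The regions called for their length kept their direction there to an unequal degree. Of the 153 shorter regions, 143 (93.5%) had fewer bases covered in both ACSS2-/- UUO libraries than in either control, but so did 54.0% of all 17135 regions. Of the 106 longer regions, 42 (39.6%) had more bases covered in both, against 4.33% of all.

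**Figure D4:**
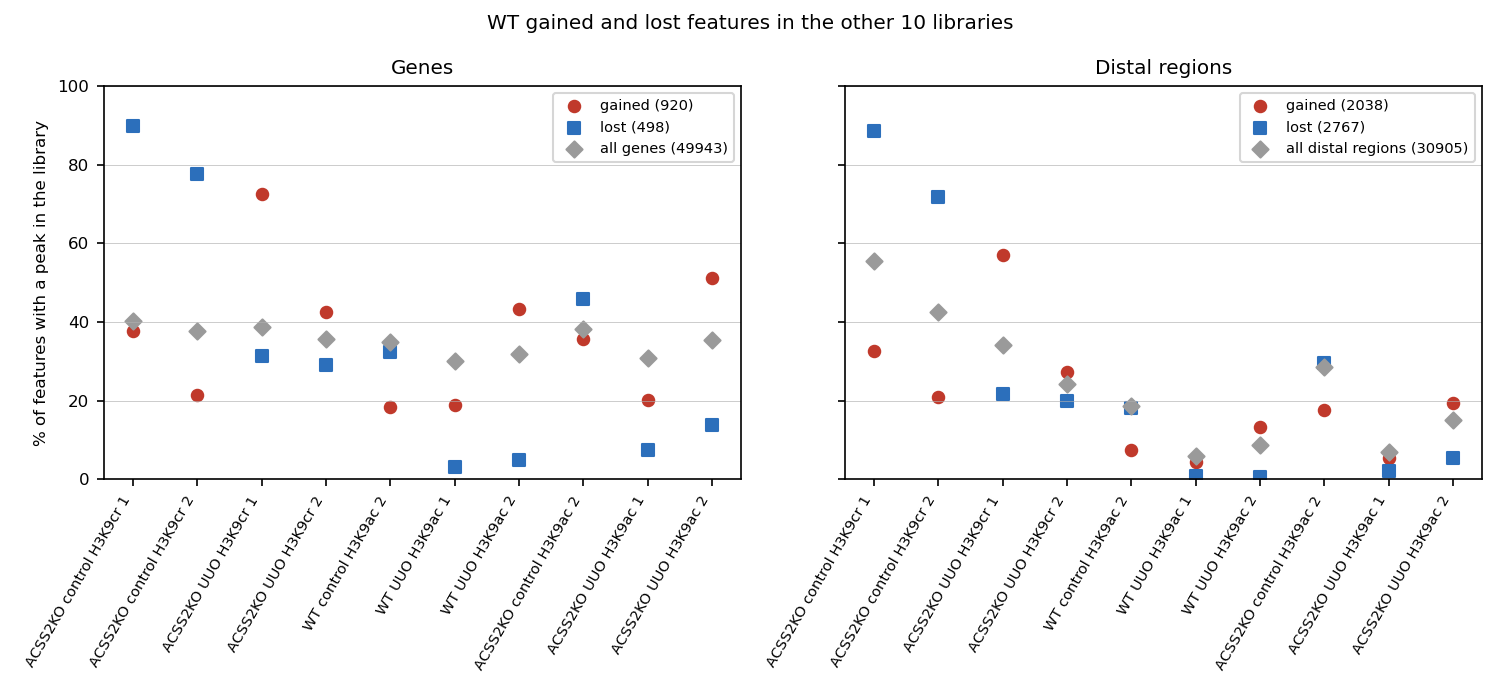
Share in percent of the genes (left) and distal regions (right) gained (red circles) or lost (blue squares) in WT UUO that had a peak in each of the other 10 libraries, beside all genes or all distal regions (grey diamonds). Lost genes stand at 89.8% and 77.5% in the ACSS2-/- control H3K9cr libraries and at 31.3% and 29.1% after UUO.

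H3K9ac, the acetyl mark at the same lysine, was read in 1 WT control and 2 WT UUO libraries. Of the gained genes 18.3% had an H3K9ac peak in control and 18.8% and 43.3% in UUO replicates 1 and 2, so the 2 UUO libraries differed and replicate 1 lay near the control. Over all genes the shares were 34.9%, 29.96% and 31.9%. Of the lost genes 32.3% had an H3K9ac peak in control and 3.21% and 5.02% after UUO. Of the lost distal regions 18.2% had one in control and 0.795% and 0.687% after UUO, where all distal regions stood at 18.7%, 5.87% and 8.63%. Both WT UUO H3K9ac lists had a peak at 0 of the 7 Y-linked genes, unlike the H3K9cr list labelled WT UUO replicate 1, so libraries of the same number need not be of the same animal. The WT UUO H3K9ac lists were small, with 15988 and 18580 peaks against 25585 in control.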

How the data were processed

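H3K9cr and H3K9ac peak lists from mouse kidneys were analysed, with groups and replicate numbers taken from the sample labels. The deposited BED files hold, per library, the chromosome, start and end of each peak in bp, with no score, fold, q-value or strand. According to the methods, the authors aligned reads with Bowtie2, removed organelle reads, duplicates and reads of mapping quality under 30, and called peaks with MACS2 at a q-value under 0.05, 1 list per library. The submitters' processing notes name mm10 and ChIPseeker. Versions and the input given to MACS2 are not given in the sources used here. Peaks depend on depth and threshold, so absence of a peak is not absence of the mark, and the authors' test on read counts could not be repeated from positions.

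Genes came from RefSeq (GRCm38.p6, autosomes, X and Y), used without strand, and any shared base pair (1 bp or more) counted as overlap. The 4 lists were merged into regions, and those over 3 kb from every gene end were called distal. Lengths were compared with limma 3.58.1 in R 4.3.3, and the rest was computed in Python 3.11.15 with numpy 2.4.6 and pandas 2.3.3. The length test was tested on simulated data and the overlap code against bedtools 2.31.1. Library totals were compared by exact two-sided permutation. Of the names in the 29 lists, 1 (Il36rn) did not match a gene. Genes named were the 12 longest gained and 12 longest lost protein-coding genes, list members that changed (at most 6 per list and direction by peak length), Il1b, Il1r1 and Acss2, 5 distal regions per direction and 8 regions per direction for length. List members that missed the rule, Mir142, the longer region at Trac and genes counted by distal regions were named after their values were seen. The members and lists were chosen with earlier results of these data known. The sources used here do not say whether the 2 libraries of a group came from separate mice, and they differed at Y-linked genes, so the spread between them may include sex. Alternatives were other windows, merges and peak numbers, protein-coding genes or start sites only, no centring, a replicate block, and leaving out each library. Some genes that the rule names are not reported here. Input and RNA-seq libraries were not used here, nor was a genome sequence, so distal sequences are not shown.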

Additional observations from a re-analysis of the deposited data

How the results depend on the processing

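Counts of gained genes were within 1.5 times of the values given above with a 1 kb window, an overlap of 50% of the shorter feature and an equal number of longest peaks per list, and so were those of lost genes. Protein-coding genes alone gave 440 gained and 174 lost, and start sites alone 553 and 267, as fewer genes or places were counted. Distal regions over 10 kb from gene ends numbered 1202 gained and 1723 lost, and stretches of 300 bp covered in both libraries of a group gave 4902 lost. Leaving out each library in turn gave 1155 to 1718 gained and 673 to 1034 lost genes, and 2437 to 7506 gained and 3144 to 8020 lost distal regions, all above the main counts because the rule then asks for fewer lists. The same gave 0 to 47 longer and 0 to 426 shorter regions, where the lone library of a group is assumed to vary like the other group. Without centring 0 regions were longer and 0 shorter by limma, where 2759 had an unadjusted p under 0.05, and the cause was not tested. The log2 ratio of UUO to control turned from -0.05 to 0.0816 for the number of peaks without UUO replicate 2 and to 0.03 without control replicate 2, from -0.12 to 0.0430 for the covered length and from -0.08 to 0.0070 for the distal share, both without UUO replicate 2. Leaving out each library gave ranges of -0.19 to 0.0816, -0.31 to 0.0430 and -0.17 to 0.0070 for these totals. With the replicate number as a block, 290 regions were longer and 463 shorter, and the gained and lost genes, which come from no fit, stayed at 920 and 498. The numbers do not mark a shared animal, since under each number Y-linked peaks occurred in the library of 1 group alone, and the deviations of replicate 1 in the 2 groups had a correlation of 0.0106. Counts of list members without each library, added after seeing the data, moved by over 1.5 times in 13 cases and by less in 67. Peak calling from unknown depth limits every absence stated here.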
